A study of Homo sapiens with 8 samples.

Results

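The genes described here are tied to the identity and differentiation of the colon epithelium: CDX1, CDX2, HNF4A, KLF4, KLF5, KRT20, CDH17, VIL1 and LGALS4. Not all of them mark differentiated cells, as given for KLF5 below. They were chosen by name, as 9 genes of the enterocyte and the colon. Of the 9 genes, 8 have a row among the 17309 genes of the count table used here. CDX1, the close relative of CDX2, has no row in it and was not analysed here. All 8 genes passed the filter on low counts and were tested. KRT20 passed it through its DLD-1 libraries alone, so a difference between the lines was built into its selection for testing.

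The lining of the colon is renewed from stem cells at the base of the crypts, and daughter cells turn into absorptive colonocytes or into secretory cells as they move up. The homeobox factors CDX1 and CDX2 and the nuclear receptor HNF4A set and maintain intestinal identity and switch on genes of the absorptive cell. The zinc-finger factors KLF4 and KLF5 are opposites in where they are found, since KLF5 is typical of dividing crypt cells and KLF4 of differentiated cells near the surface. The other genes encode proteins of the differentiated cell: keratin 20 is an intermediate filament protein of the upper crypt and surface, CDH17 (LI-cadherin) an intestinal cell adhesion protein, villin (VIL1) an actin-bundling protein of the brush border, and galectin-4 (LGALS4) a sugar-binding protein of the gut epithelium.

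RNA was measured in SW480 and DLD-1, which are established human colorectal cancer cell lines grown in DMEM with 10% fetal bovine serum. Each line had been infected with a virus carrying a control short hairpin RNA (shControl, labelled WT in genotype) or a hairpin against the RNA acetyltransferase NAT10 (shNAT10, labelled as NAT10 knockdown), and each of the 4 groups holds 2 libraries. The labels do not say which NAT10 hairpin was used, and each line is a single line, so a difference between SW480 and DLD-1 includes everything in which these 2 cultures differ. The replicates are called biological without further detail, so p-values measure only the spread between these libraries, which may be technical.

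Poly(A)-selected RNA was read as single-end 50-base reads, and 15147805 to 17271336 estimated read counts were assigned per library. NAT10 itself fell in both lines. The SW480 libraries held 122.3 and 122.5 CPM (read counts scaled to library size, with TMM factors) with the control hairpin and 23.6 and 27.9 with shNAT10. The DLD-1 libraries held 121.1 and 120.5 CPM with the control hairpin and 59.0 and 54.4 with shNAT10. All 6 epithelial markers checked (EPCAM, CDH1, KRT8, KRT18, KRT19 and CLDN7) were present, with a summed level of 3163 to 3820 CPM in SW480 libraries and 7494 to 8033 CPM in DLD-1 libraries. Markers of leukocytes summed to 0.585 to 1.19 CPM, those of endothelium to 0.584 to 1.64 CPM and those of fibroblasts or smooth muscle to 4.55 to 9.41 CPM. The replicates of SW480 shNAT10 differed more than the others, with a chi-square of 9.77 per degree of freedom over genes against 3.32 to 4.59 for the other 3 pairs.

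Before the levels, the sequences that bear on where these mRNAs start are shown, from GRCh38. HNF4A (chromosome 20, 44355699 to 44434596, plus strand) has an upstream start region called P2 and a downstream one called P1, which lie 45570 bases apart and give proteins with different first residues. The coding part of the first exon that follows each is given below from the GENCODE annotation, with the start codon in capitals, since it tells the 2 kinds of HNF4A mRNA apart.
HNF4A P2, chr20:44355805-44355853, plus strand: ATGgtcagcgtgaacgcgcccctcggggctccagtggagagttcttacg
HNF4A P1, chr20:44401373-44401487, plus strand: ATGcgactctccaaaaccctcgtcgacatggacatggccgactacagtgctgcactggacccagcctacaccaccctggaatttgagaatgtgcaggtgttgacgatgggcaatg

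The HNF4A counts came almost wholly from P2 transcripts. Of the 4 HNF4A transcripts in the table, 3 start at P2 (NM_175914.4, NM_001030003.3 and NM_001030004.3) and held 99.6% of the gene's counts over all libraries, with 430 to 433 counts per SW480 library and 614 to 672 per DLD-1 library. The fourth, XM_005260407.4, could not be placed and had 15.2 counts, all in SW480 shControl replicate 1. Transcripts that start at P1 have no row in the table used here, so reads from P1 mRNA were not analysed here and their absence cannot be inferred. The table lists no transcript with a count of 0 in all 8 libraries, and why a given transcript has no row is not stated. Because most exons are shared, reads from a P1 mRNA could also have been assigned to a P2 transcript.

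KLF5 (chromosome 13, 73054976 to 73077538, plus strand) has 2 transcripts in the table with separate starts, and KRT20 (chromosome 17, 40875889 to 40885242, minus strand) has 1. The 250 bases before the upstream KLF5 start and the KRT20 start, from RefSeq promoters of GRCh38.p14, are shown because that KLF5 transcript carried many counts and because KRT20 differed most of the 8 genes between the lines. Capitals mark the motif matches: TATAAA, the letters of a TATA-box motif, in the upstream KLF5 window and TTTATTA, a CDX-type motif, in the KRT20 window.
KLF5 upstream start, chr13:73054726-73054975, plus strand: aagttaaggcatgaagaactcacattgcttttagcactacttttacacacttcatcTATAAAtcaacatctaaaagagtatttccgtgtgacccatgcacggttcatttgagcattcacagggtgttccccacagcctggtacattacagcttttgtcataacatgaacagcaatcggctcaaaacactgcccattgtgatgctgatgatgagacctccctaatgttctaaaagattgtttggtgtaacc
KRT20, chr17:40885243-40885492, minus strand: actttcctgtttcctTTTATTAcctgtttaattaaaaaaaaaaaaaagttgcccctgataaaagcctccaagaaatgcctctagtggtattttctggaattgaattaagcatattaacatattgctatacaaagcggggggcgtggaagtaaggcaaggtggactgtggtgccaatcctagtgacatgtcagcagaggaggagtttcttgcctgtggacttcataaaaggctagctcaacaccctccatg

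G and C made up 40.8% of the KLF5 window and 41.2% of the KRT20 window. Motifs were searched on both strands in 300-base windows, from 250 bases before to 50 after each RefSeq start, for 8 starts of 6 of the genes (KLF4, CDX2, KLF5, KRT20, LGALS4 and HNF4A). The 2 matches printed, at position -194 in the KLF5 window and -235 in the KRT20 window relative to the start, were the only ones among the 6 motifs searched. Whether the TATAAA at -194 acts as the TATA box of the upstream KLF5 start was not tested. The TATA-box motif TATAAA is found in 11.5% of the 35116 promoter windows of the table and the CDX motif TTTATTA in 4.14%. The other CDX motif TTTATGG (2.54% of windows), the KLF motif CCACACCC (3.28%) and the HNF4 motifs CAAAGTCCA (0.384%) and CAAAGGTCA (0.407%) gave no match in these windows. The RefSeq start of the downstream KLF5 window lies inside the transcript as GENCODE places it, so that window is not printed. The CDX2 and LGALS4 windows also lie inside the transcript by GENCODE, which places the starts at 27971139 and 38813364. The lack of a match in them therefore does not describe the bases before those starts. A match is a run of letters and does not show that a factor binds there.

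**Figure D1:**
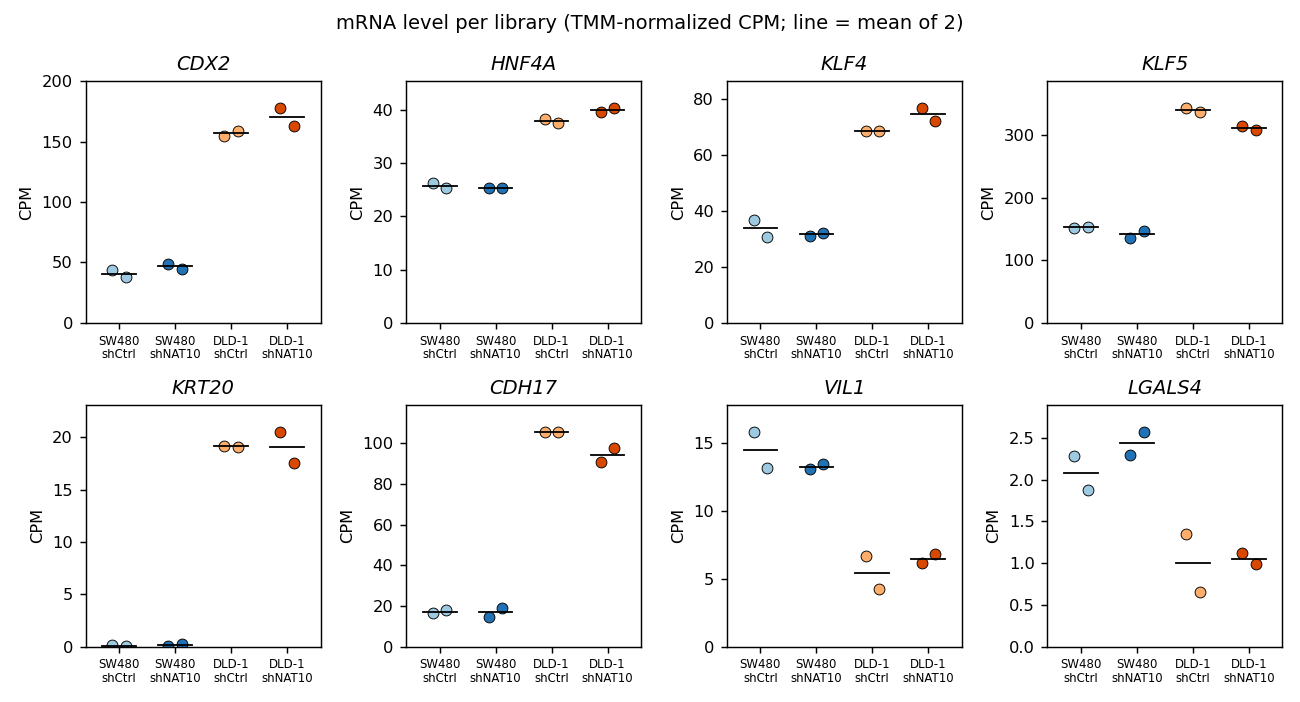
mRNA level in TMM-normalized CPM (y axis, linear, from 0) of the 8 genes in each of the 8 libraries, with a line at the mean of the 2 libraries of each group. CDX2, HNF4A, KLF4, KLF5, KRT20 and CDH17 sit higher in all 4 DLD-1 libraries than in all 4 SW480 libraries, and VIL1 and LGALS4 sit lower.

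Whichever hairpin they carried, DLD-1 cells had more mRNA of the 4 transcription factors and of KRT20 and CDH17 than SW480 cells, and less of VIL1 and LGALS4. In shControl libraries 8 of the 8 genes differed at an adjusted p under 0.05 (edgeR's quasi-likelihood test with Benjamini-Hochberg adjustment over all 13619 genes tested), 6 higher and 2 lower in DLD-1. The background is high, since 73.8% of all genes tested were called in this comparison, 35.6% higher and 38.1% lower in DLD-1. In shNAT10 libraries the calls had the same directions, 6 higher and 2 lower, against 74.5% of all genes called, 36.3% higher and 38.2% lower. The groups did not overlap for any of the 8 genes in either comparison, as for 87.7% and 85.1% of all genes tested. Being called, or not overlapping, was thus common among all genes in these comparisons. The median log2 fold change of the 8 genes was 1.09 in shControl and 1.19 in shNAT10, while that of all genes tested was -0.01 in both. These counts and medians include KRT20, which passed the filter through DLD-1 alone. General epithelial markers moved with the line as well: 6 of 6 were called higher in DLD-1 in both hairpin groups, with a median log2 fold change of 1.83 in shControl and 1.78 in shNAT10. In shControl they ran from KRT18 (1.89-fold) through EPCAM (4.56-fold) and CDH1 (4.48-fold) to CLDN7 (10.8-fold), and their part in the differences of the 8 genes was not tested. In a bulk culture, fewer cells that carry an mRNA and less of it per cell cannot be told apart.

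Among the transcription factors, CDX2 differed most. In SW480 it read 43.5 and 37.8 CPM with the control hairpin and 48.6 and 44.7 with shNAT10, and in DLD-1 it read 154 and 159 CPM with the control hairpin and 178 and 163 with shNAT10. Every DLD-1 library was thus above every SW480 library by a wide margin. The difference was 3.86-fold in shControl (log2 fold change 1.95, standard error 0.0842, adjusted p = 3.2e-11, edgeR) and 3.66-fold in shNAT10 (1.87, standard error 0.0832, adjusted p = 4.6e-11, edgeR). HNF4A differed least among the 8 genes, although its replicates were close. SW480 libraries held 26.1 and 25.3 CPM of it under shControl and 25.3 and 25.3 under shNAT10, whereas DLD-1 libraries held 38.2 and 37.5 under shControl and 39.6 and 40.3 under shNAT10. The lines did not overlap, and DLD-1 was 1.47-fold higher in shControl (adjusted p = 1.3e-05, edgeR) and 1.58-fold higher in shNAT10 (adjusted p = 2.4e-06). On the opposite strand the span of HNF4A overlaps those of HNF4A-AS1 and AL117382.2, and the library kit is not stated to keep strand. Reads from any exon stretch they share could not be told apart, and whether exons overlap was not checked.

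The 2 Krüppel-like factors moved in the same direction. KLF4 stood at 36.7 and 30.7 CPM under shControl and 31.1 and 32.0 under shNAT10 in SW480 cells, and at 68.4 and 68.5 and then 76.7 and 72.1 in the matching DLD-1 groups. KLF5 stood at 152 and 154 CPM under shControl and 136 and 147 under shNAT10 in SW480 cells, and at 343 and 336 and then 314 and 308 in the matching DLD-1 groups. For both factors the lowest DLD-1 library was above the highest SW480 library. KLF4 was 2.03-fold higher in DLD-1 in shControl (log2 fold change 1.02, standard error 0.0873, adjusted p = 7.4e-08, edgeR) and 2.36-fold higher in shNAT10 (adjusted p = 9.3e-09). KLF5 was 2.22-fold higher in shControl (1.15, standard error 0.0632, adjusted p = 4.9e-10, edgeR), and the shNAT10 log2 fold change was 1.14 (adjusted p = 6.1e-10).

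KRT20 was close to the limit of detection in SW480 and well expressed in DLD-1. SW480 libraries gave 2 and 1 counts under shControl and 1 and 4 under shNAT10, whereas DLD-1 libraries gave 327 and 322 counts under shControl and 349 and 267 under shNAT10. The SW480 counts are so low that the size of the ratio is poorly known. From the summed counts, KRT20 was 217-fold higher in DLD-1 in shControl (95% counting interval 73.8 to 1053) and 132-fold higher in shNAT10 (56.2 to 408), and these intervals cover counting error only. The fitted log2 fold changes were 7.65 (adjusted p = 9.4e-12, edgeR) and 6.95 (adjusted p = 1.1e-11). With SW480 shNAT10 replicate 2 left out, the second rose to 8.17, and with replicate 1 left out it was 6.30. KRT20 was tested only because of its DLD-1 counts, so these p-values add no support for a difference between the lines.

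CDH17 also separated the lines clearly. SW480 cells held 16.5 and 17.9 CPM under shControl and 14.5 and 19.1 under shNAT10, while DLD-1 cells held 106 and 106 CPM under shControl and 90.7 and 97.9 under shNAT10. The lowest DLD-1 library was several times above the highest SW480 library. The difference was 6.15-fold in shControl (log2 fold change 2.62, standard error 0.106, adjusted p = 1.6e-11, edgeR) and 5.61-fold in shNAT10 (2.49, standard error 0.107, adjusted p = 3.0e-11).

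VIL1 and LGALS4 went the other way. VIL1 stood at 15.8 and 13.2 CPM under shControl and 13.1 and 13.5 under shNAT10 in SW480 cells, and at 6.64 and 4.20 and then 6.12 and 6.83 in the matching DLD-1 groups. All SW480 libraries were above all DLD-1 libraries, by 2.67-fold in shControl (log2 fold change -1.42, standard error 0.171, adjusted p = 3.2e-06, edgeR) and 2.05-fold in shNAT10 (-1.04, adjusted p = 6.5e-05). The 3′ side of VIL1 (chromosome 2, 218419123 to 218453295) overlaps the span of USP37 on the opposite strand. Reads from any exon stretch they share could not be told apart without strand, and whether exons overlap was not checked.

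LGALS4 had the fewest counts of the 8 genes after KRT20 in SW480. SW480 cells held 2.29 and 1.87 CPM under shControl and 2.29 and 2.57 under shNAT10, while DLD-1 cells held 1.35 and 0.651 CPM under shControl and 1.12 and 0.985 under shNAT10. The 2 DLD-1 shControl libraries lie far apart, but no DLD-1 library reached the lowest SW480 library. SW480 was higher by 2.07-fold in shControl (log2 fold change -1.05, standard error 0.327, adjusted p = 0.0098, edgeR) and by 2.30-fold in shNAT10 (standard error 0.318 on the log2 scale, adjusted p = 0.0034). The shControl call rests on single libraries. It was lost without SW480 shControl replicate 1 (-0.90, adjusted p = 0.075) and without DLD-1 shControl replicate 2 (-0.62, adjusted p = 0.13), and without DLD-1 shControl replicate 1 the value was -1.66.

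**Figure D2:**
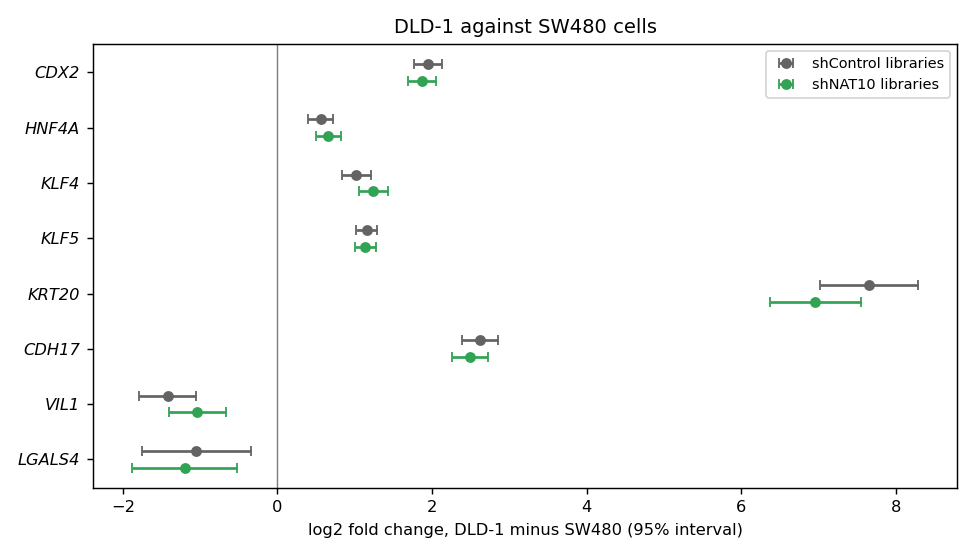
Log2 fold change between DLD-1 and SW480 (x axis, DLD-1 minus SW480; points, edgeR estimates; bars, 95% intervals) for each gene in shControl and shNAT10 libraries. All 16 intervals lie off 0, to the right for 6 genes and to the left for VIL1 and LGALS4.

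Levels can be set between genes only per length, for which the deposited FPKM values were used. KLF5 was the highest of the 8 genes in every group, with 54.1 ± 0.170 FPKM in SW480 shControl and 118 ± 2.23 in DLD-1 shControl (mean ± SD, n = 2 libraries), and CDX2 was second with 13.3 ± 1.26 and 49.8 ± 1.66. In SW480 shControl KLF4 (12.7 FPKM) overlapped CDX2, followed by HNF4A (6.10), CDH17 (5.16), VIL1 (2.34), LGALS4 (2.24) and KRT20 (0.0600). VIL1 and LGALS4 overlapped there, at 2.14 to 2.54 and 1.98 to 2.50 FPKM. In DLD-1 shControl the order was CDH17 (31.2), KLF4 (25.6), KRT20 (12.4), HNF4A (9.83), LGALS4 (1.02) and VIL1 (0.870) after the first 2, with the last 2 genes overlapping. In DLD-1 shNAT10, CDH17 (26.9 to 29.1 FPKM) and KLF4 (27.2 to 28.9) overlapped. KRT20 thus stood at the bottom of the order in SW480 and in its middle in DLD-1. For LGALS4 the FPKM of SW480 shNAT10 replicate 2 is missing, because the values of that library stop after part of the transcripts.

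Both KLF5 starts carried many counts in each group. The share of the upstream transcript NM_001286818.1 ranged from 48.3% under shNAT10 in DLD-1 to 55.9% under shControl in SW480. These shares were not tested, and within SW480 shControl alone the counts were 1602 and 1316 for this transcript. NM_001265.6 held 90.6% to 94.1% of CDX2 counts and NM_004235.6 held 96.0% to 99.5% of KLF4 counts, while VIL1 and KRT20 each have 1 transcript in the table. Reads shared by transcripts had been divided among them by the authors' counting, so the shares are estimates.

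Knockdown of NAT10 was the comparison the libraries were made for, and it asks whether these genes change when NAT10 falls. No call was made for any of the 8 genes in either line. In SW480, 0 of 8 genes passed an adjusted p under 0.05 (edgeR), against 1.68% of all genes tested, and in DLD-1, 0 of 8 passed against 0.0147%. At an unadjusted p under 0.05, 1 of 8 genes passed in SW480, against 19.3% of all genes tested, and 0 of 8 in DLD-1, against 5.96%. The study's stated limits (fold change above 1.2 or below 0.83 with unadjusted p under 0.05) were met by 0 of 8 genes in both lines, against 9.08% and 2.68% of all genes. DESeq2 also called 0, of the 5 genes to which it gave an adjusted p; it gave none to VIL1, KRT20 and LGALS4. The median log2 fold change of the 8 genes was -0.03 in SW480 and 0.07 in DLD-1, against -0.01 and 0 for all genes tested.

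The 1 gene under an unadjusted p of 0.05 was CDX2 in SW480, and it was not called after adjustment. Both shNAT10 libraries (48.6 and 44.7 CPM) lay above both shControl libraries (43.5 and 37.8), with a log2 fold change of 0.20 (95% interval 0.01 to 0.39, unadjusted p = 0.038, adjusted p = 0.23, edgeR). CDX2 in DLD-1 had 0.12 on the log2 scale (-0.04 to 0.29, adjusted p = 0.92), again without overlap of the libraries. The groups did not overlap for 4 of 8 genes in SW480 (CDX2, HNF4A, LGALS4 and KLF5), against 47.9% of all genes, and for 5 of 8 in DLD-1 (CDX2, HNF4A, CDH17, KLF4 and KLF5), against 36% of all genes.

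For most of the genes the intervals were narrow. In SW480 the 95% interval of the log2 fold change lay between -0.5 and 0.5 for 6 of 8 genes, all but KRT20 (-1.29 to 2.68) and LGALS4 (-0.36 to 0.81). In DLD-1 it lay within the same limits for 6 of 8, all but VIL1 (-0.17 to 0.67) and LGALS4 (-0.74 to 0.89). HNF4A, the gene with the closest replicates, had -0.02 (-0.20 to 0.15, adjusted p = 0.90) in SW480 and 0.08 (-0.08 to 0.24, adjusted p = 0.94) in DLD-1. KLF5 had -0.11 (-0.25 to 0.03, adjusted p = 0.36) and -0.13 (-0.26 to 0.01, adjusted p = 0.86). KRT20, at 1 to 4 counts per library in SW480, allowed only a large change to be detected there, while in DLD-1 its value was -0.0042 (-0.26 to 0.25, unadjusted p = 0.99).

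The remaining genes had values near 0 with intervals that include it. The CDH17 value was -0.03 in SW480 (-0.29 to 0.22, adjusted p = 0.91) and -0.17 in DLD-1 (-0.36 to 0.03, adjusted p = 0.89). KLF4 had -0.10 in SW480 (-0.29 to 0.10, adjusted p = 0.60) and 0.12 in DLD-1 (-0.06 to 0.30, adjusted p = 0.92). VIL1 had -0.13 in SW480 (-0.45 to 0.19, adjusted p = 0.67) and 0.25 in DLD-1 (adjusted p = 0.92), and LGALS4 had 0.23 (adjusted p = 0.69) and 0.07 (unadjusted p = 0.85).

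The effect of the knockdown was also compared between the lines. For 0 of 8 genes did the 2 effects differ at an adjusted p under 0.05 (edgeR), against 0.00734% of all genes tested, and 0 of 8 did so at an unadjusted p under 0.05, against 9.38%. DESeq2 called 0 of the 5 genes with an adjusted p. The KLF4 difference was 0.22 on the log2 scale (DLD-1 minus SW480, -0.05 to 0.48, adjusted p = 0.58), and that of VIL1 was 0.38 (-0.15 to 0.91, adjusted p = 0.62). The number of calls over all genes in SW480 depended on SW480 shNAT10 replicate 2, rising from 229 to 2162 without it, while the 8 genes stayed at 0 calls.

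**Figure D3:**
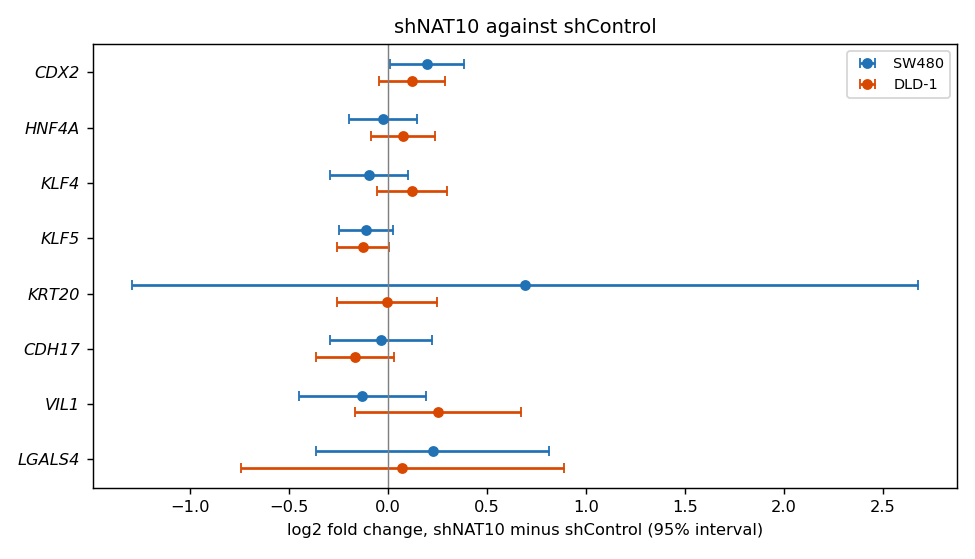
Log2 fold change after NAT10 knockdown (x axis, shNAT10 minus shControl; points, edgeR estimates; bars, 95% intervals) in SW480 and DLD-1. Every interval but that of CDX2 in SW480 includes 0, and the widest is that of KRT20 in SW480.

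To place the 8 genes, 3 lists of other intestinal genes were read from the same fit. Of 16 intestinal transcription factors, 15 were tested, and in shControl 10 were higher in DLD-1, 3 were lower and 2 were not called, with a median log2 fold change of 1.15. Among all genes tested 35.6% were higher and 38.1% lower in this comparison, which holds beside each list count here. EHF, an epithelial ETS factor, held 6.39 and 6.85 CPM in the SW480 control libraries and 449 and 437 in those of DLD-1 (log2 fold change 6.06, adjusted p = 1.4e-15, edgeR). GATA4, which acts with CDX2 and HNF4A on absorptive genes, was higher in SW480. It had 31 and 25 counts there against 0 and 1 in DLD-1 shControl, a ratio of 55.9 (95% counting interval 9.63 to 2247). GATA4 and another of the 3 lower factors passed the filter through their SW480 libraries alone. HNF4G, among those higher, passed it through its DLD-1 libraries alone. A difference between the lines was thus built into the selection of these genes, and the counts and median of this list include them.

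The absorptive and brush-border genes were divided between the lines. Of 25 listed, 21 have a row and 12 were tested, of which 6 were higher in DLD-1, 5 were lower and 1 was not called in shControl, with a median log2 fold change of 0.11. CEACAM5, an adhesion protein of the colon surface, had 0 counts in both SW480 shControl libraries and 41 and 25 in DLD-1. Against a floor of 3 counts over the group, it was at least 22.0-fold higher in DLD-1. Such bounds, here and below, leave out the counting error of the higher count. ALPI, intestinal alkaline phosphatase, had 29 counts in each SW480 shControl library and 0 in every DLD-1 library, at least 19.3-fold higher in SW480. USH1C, a scaffold that links brush-border microvilli, held 42.1 and 37.8 CPM in the SW480 control libraries and 0.294 and 0.296 in those of DLD-1 (log2 fold change -7.05, adjusted p = 3.8e-13, edgeR). ALPI and USH1C were thus on the same side as VIL1. The 5 genes called lower (ALPI, ANPEP, ESPN, USH1C and CDHR5) passed the filter through their SW480 libraries alone. MYO1A and CEACAM5, among those higher, passed it through their DLD-1 libraries alone. A difference between the lines was thus built into the selection of these genes. The counts and median of this list include them, and the p-value of USH1C adds no support for a difference. SI, sucrase-isomaltase, had at most 1 count in any library and was not tested.

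Of 15 secretory genes, 11 have a row and 6 were tested, of which 4 were higher and 2 lower in DLD-1 in both hairpin groups. AGR2, TFF3 and REG4, which were among those higher, passed the filter through their DLD-1 libraries alone. FCGBP, which was lower, passed it through SW480 alone. A difference between the lines was thus built into the selection of these genes for testing. AGR2, a disulfide isomerase of mucus-producing cells, had 0 counts in the SW480 control libraries and 3601 and 3283 in those of DLD-1, at least 2298-fold higher. TFF3, a goblet cell peptide, had 0 counts in all SW480 libraries and 148 and 140 in DLD-1 shControl, at least 96.1-fold higher, and REG4 was at least 13.7-fold higher. In shControl, TFF1 was also higher in DLD-1 (log2 fold change 3.38), while GFI1 (-3.17) and FCGBP (-2.11) were the 2 genes called lower. MUC2, the main goblet cell mucin, had 2 to 9 counts per library and CHGA, an enteroendocrine marker, 0 to 1, so neither was tested. In the knockdown comparisons 0 of the tested genes of these 3 lists passed an adjusted p under 0.05 (edgeR). At an unadjusted p under 0.05, 2 of 12 absorptive genes, 3 of 15 transcription factors and 1 of 6 secretory genes passed in SW480, against 19.3% of all genes tested, and 0 of each list in DLD-1, against 5.96%.

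**Figure D4:**
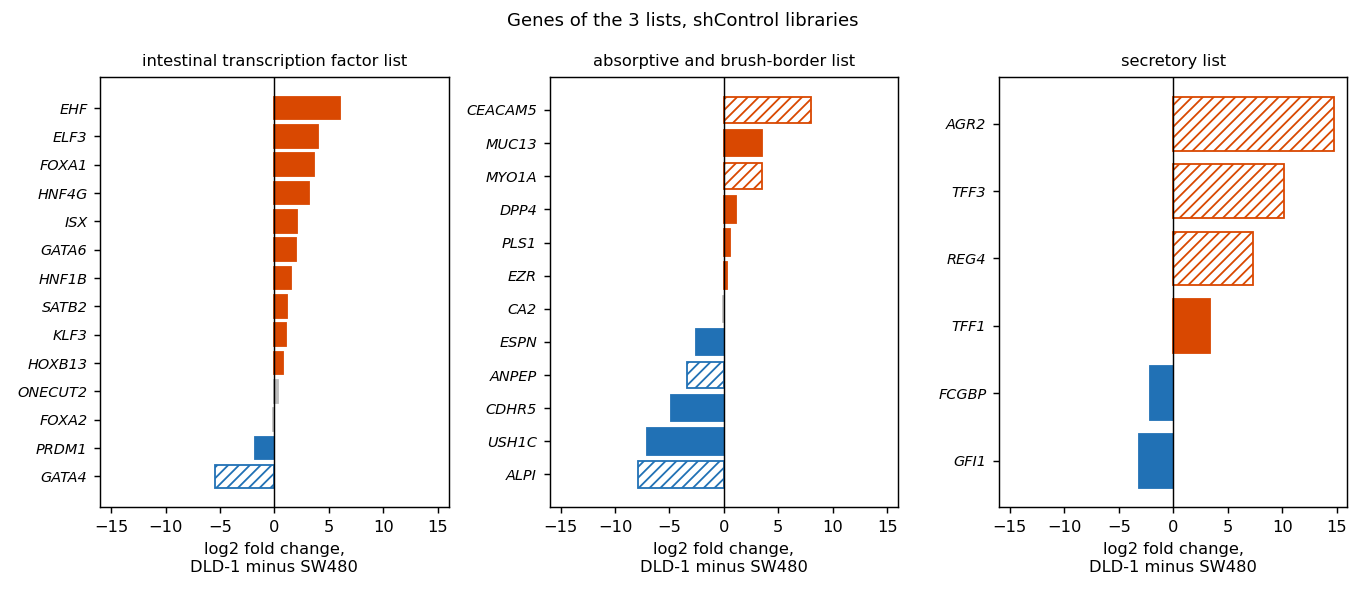
Fitted log2 fold change between DLD-1 and SW480 in shControl libraries (x axis, DLD-1 minus SW480) for tested genes of the 3 lists. Orange bars are called higher in DLD-1, blue bars called lower and grey bars not called, and hatched bars mark genes with at most 3 summed counts in the lower line, whose length depends on the prior count and is no bound.

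The genes most like each of the 8 across libraries were found by Pearson's r of log2 CPM over the 8 libraries. The first was LIG1 for CDX2 (r = 0.999), SLBP for HNF4A (0.999), IKZF2 for KLF4 (0.998) and RASSF3 for KLF5 (0.999). For the other genes it was SOX4 for KRT20 (0.9998), GPR160 for CDH17 (0.999), HAP1 for VIL1 (0.996) and ANKAR for LGALS4 (0.985). The libraries fall into 2 cell lines, so such an r mainly reads the difference between the lines, and it is given as a description only.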

How the data were processed

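The 8 RNA-seq libraries fall into 4 groups set by the cell line and hairpin in the labels. The genes and lists described were chosen with earlier results of these data known. The estimated counts per RefSeq transcript were deposited by the authors without normalization, and FPKM values per library were deposited by the authors from the same processing, which BGI carried out. The submitters' processing notes name HISAT2 2.0.4, Bowtie2 2.2.5, RSEM 1.2.12 and hg38, without their roles. Counts were summed per gene and rounded, since 88.3% of gene totals lay within 0.05 of a whole number. Totals were filtered (filterByExpr, minimum count 10, minimum total 15), scaled by TMM, and compared in 1 model of the 4 groups, with no replicate term, by edgeR 4.0.16 (R 4.3.3). Intervals are 95% intervals. Limits from 3 counts cover the counting error of the lower line only, and not that of the higher count.

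All 8 genes were described in every comparison. From each list, the 3 tested genes with the largest difference between the shControl groups were named, with ALPI, SI, MUC2 and CHGA. The remaining tested secretory genes, TFF1, GFI1 and FCGBP, were named as well. One transcription factor that this rule names is not reported here or plotted, although it is in the counts of its list. Alternatives were DESeq2 1.42.0, other scalings and filters, a replicate block, each library left out, only the libraries compared, the stated limits, and limma 3.58.1 (limma-trend) on log2(FPKM + 1) and log2(FPKM + 0.1). The limma-trend fits covered only the 6305 tested genes with a complete FPKM, so their adjusted p-values are over those genes. Adjusted p-values that DESeq2 left undefined were kept undefined and not counted as calls or as lost calls. Symbols were found for 99.3% of gene identifiers. Coordinates of genes are RefSeq GRCh38.p14, and transcript starts are GENCODE on GRCh38.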

Additional observations from a re-analysis of the deposited data

Results flagged for a closer look

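One result stood out, and it concerns the targeted gene rather than the differentiation genes. NAT10 fell by 2.25 on the log2 scale in SW480 and by 1.09 in DLD-1, and the difference of the 2 effects was 1.16 (95% interval 0.91 to 1.41, adjusted p = 0.0015, edgeR's quasi-likelihood test). Each value rests on 2 libraries per group. It was the 1 gene of 13619 tested for which the effects in the 2 lines differed at an adjusted p under 0.05, and that count moved with the setting: DESeq2 called 21 genes, the replicate block 209 and the fit without SW480 shNAT10 replicate 2 called 346. The NAT10 call itself was lost without DLD-1 shNAT10 replicate 1 (1.10, adjusted p = 0.073, edgeR) and with limma-trend on log2(FPKM + 1) (1.09, adjusted p = 0.072) and log2(FPKM + 0.1) (1.18, adjusted p = 0.085), while over these alternatives and the others run the difference lay between 1.04 and 1.28. After knockdown NAT10 stood at 25.7 ± 3.06 CPM in SW480 and 56.7 ± 3.25 CPM in DLD-1 (mean ± SD, n = 2), and any part of this gap in the values of the 8 differentiation genes was not tested.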

How the results depend on the processing

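Under the alternatives run, the count of genes called was 8 in both comparisons of the lines, or 7 of 7 on FPKM, and 0 in the knockdown comparisons and their difference. The exceptions were the shControl comparisons without SW480 shControl replicate 1 or DLD-1 shControl replicate 2, with 7 calls each. Of the single values between lines, 266 kept direction and call, 0 reversed and 2 lost the call, both LGALS4 as given above. On log2(FPKM + 1) the KRT20 difference was 3.66 in shControl and 3.62 in shNAT10 and that of VIL1 was -0.84 and -0.61, since the pseudocount shrinks low values. LGALS4 has no complete FPKM, and KRT20 could not be tested in SW480 with only the libraries compared. DESeq2 gave no adjusted p to VIL1, KRT20 and LGALS4 in the knockdown comparisons. Among knockdown values, none of which was called, 21 changed sign and 363 did not. HNF4A in SW480 was 0.037 on log2(FPKM + 1) and 0.042 on log2(FPKM + 0.1), KRT20 in DLD-1 0.0046 and 0.0046, and the KLF5 difference 0.018 and 0.019. Leaving out 1 library at a time, the SW480 values ranged from -0.25 to 0.0074 for VIL1, -0.52 to 1.35 for KRT20, -0.25 to 0.16 for CDH17 and -0.22 to 0.039 for KLF4. The DLD-1 values ranged from -0.038 to 0.62 for VIL1, -0.13 to 0.10 for KRT20 and -0.35 to 0.69 for LGALS4. The differences ranged from -0.18 to 0.019 for CDX2, -1.35 to 0.52 for KRT20, -0.32 to 0.083 for CDH17, -0.58 to 0.46 for LGALS4 and -0.079 to 0.043 for KLF5. The cause was not tested.

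Same-numbered libraries deviated together only weakly (r = 0.13 in SW480 and 0.04 in DLD-1), so the numbers were not taken to pair them. Across the lines such r ran from -0.0053 (SW480 shControl with DLD-1 shNAT10) to 0.12 (SW480 shNAT10 with DLD-1 shNAT10). With the replicate block the 8 genes stayed at 8 and 8 calls between lines and at 0, 0 and 0 in the knockdown comparisons, while the calls over all genes rose from 229 to 1654 in SW480, from 2 to 65 in DLD-1 and from 1 to 209 for the difference. Without a library, calls over all genes ranged from 17 to 2162 in SW480, 1 to 29 in DLD-1 and 0 to 346 for the difference. Depth limits KRT20 in SW480 and LGALS4 in both lines, where only large changes could be seen.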
